A study of Mus musculus with 4 samples.

Results

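The alarmins interleukin-33 and thymic stromal lymphopoietin (TSLP) and the chains of their receptors were described in mouse skin at the level of RNA. The genes were taken by symbol from the deposited feature lists: Il33 and Tslp for the ligands, Il1rl1 and Il1rap for the interleukin-33 receptor, and Crlf2 and Il7r for the TSLP receptor. They are 6 of the 32285 genes listed, and all 6 had UMIs in every library. The rule used their names and no measured value, although earlier results of these data were known when it was written.

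Single-cell RNA sequencing (10x Genomics 3′ version 3.1, which counts unique molecular identifiers, UMIs, as a proxy for RNA molecules) was carried out on neck and ear skin. Each of 4 libraries came from female C57BL/6J mice of 6 to 8 weeks and pooled 3 animals, and each is the only library of its group. The untreated library had no agent applied. In both oxazolone libraries, mice whose necks had been shaved were sensitised on back and ear with 3% oxazolone, a contact hapten, in acetone and mineral oil. From 7 days later they were challenged with 1.0% oxazolone every other day, and skin was taken on day 10 or on day 16. In the MC903 library, calcipotriol, a vitamin D analogue, was applied in ethanol at 1 nmol daily to ear and neck, and skin was taken on day 9. Skin treated with vehicle alone was not analysed here, so effects of the solvents, shaving and the agents cannot be told apart. The digestion used Collagenase Ia in place of a kit enzyme to raise the yield of fibroblasts, which bears on how many cells of each type were captured. The study asked how basophils and fibroblasts act on each other in type 2 skin inflammation.

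With 1 pooled library per group, no difference between groups has a replicate check and no p-value is given. Intervals are 95% intervals of the counts (exact Poisson for a level, exact conditional binomial for a ratio) and cover counting error only, not the spread between mice. A gene was called higher or lower when its level differed by at least 2-fold, and the share of all measured genes past the same fold is given with the counts. The kept cells numbered 7221 untreated, 7694 on day 10 of oxazolone, 7371 on day 16 and 3703 with MC903, with median depths of 8812 to 14371 UMIs per cell. Pairs of libraries shared 5 to 16 cell barcodes, at most 0.311% of a library. The files of the untreated and day 10 libraries name Cell Ranger 7.2.0 and those of the other libraries 8.0.0, so in those comparisons condition and software version cannot be told apart.

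Interleukin-33 is a cytokine of the interleukin-1 family that is stored in the nucleus of barrier and stromal cells and released when they are damaged. It binds ST2, the product of Il1rl1, which then recruits the accessory protein encoded by Il1rap and signals through MyD88 and IRAK kinases. TSLP is a cytokine related to interleukin-7 that binds a chain encoded by Crlf2 together with the interleukin-7 receptor alpha chain encoded by Il7r, and signals through JAK kinases and STAT5. In skin, keratinocytes are the textbook source of both ligands, and mast cells, basophils, group 2 innate lymphoid cells, regulatory T cells and dendritic cells are known to carry one or both receptors. Il1rap also serves the interleukin-1 and interleukin-36 receptors, and Il7r also serves the receptor for interleukin-7, so RNA of these chains alone does not mark an alarmin receptor.

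Il33 lies at chr19:29925114-29960718 on the plus strand and Il1rl1 at chr1:40429570-40465415 on the plus strand (GENCODE M21, build GRCm38, 5 annotated transcripts each). Il1rap lies at chr16:26581704-26730117 on the plus strand, Crlf2 at chr5:109554709-109558993 on the minus strand and Il7r at chr15:9505788-9530176 on the minus strand. Il33 and Il1rl1, the ligand and receptor whose levels in fibroblasts differed most between libraries, each have 2 annotated promoters, which are shown here because counting by gene adds up their transcripts. The 250 bases before each start site are given 5′ to 3′ from RefSeq on build GRCm38.p6, with matches to the TATA box core TATAAA in capitals. Matches to the core that GATA factors bind, AGATAA, are in capitals too, on either strand.
Il33 promoter 1: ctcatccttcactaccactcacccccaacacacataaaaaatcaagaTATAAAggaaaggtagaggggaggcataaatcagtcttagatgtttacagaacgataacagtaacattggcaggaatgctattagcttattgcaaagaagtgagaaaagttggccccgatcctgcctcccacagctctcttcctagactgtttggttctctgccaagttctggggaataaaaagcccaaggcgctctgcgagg
Il33 promoter 2: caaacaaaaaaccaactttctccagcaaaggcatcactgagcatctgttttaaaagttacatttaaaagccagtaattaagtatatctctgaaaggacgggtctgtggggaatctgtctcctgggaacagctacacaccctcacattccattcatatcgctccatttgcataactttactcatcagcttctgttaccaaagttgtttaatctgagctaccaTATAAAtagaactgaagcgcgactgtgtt
Il1rl1 promoter 1: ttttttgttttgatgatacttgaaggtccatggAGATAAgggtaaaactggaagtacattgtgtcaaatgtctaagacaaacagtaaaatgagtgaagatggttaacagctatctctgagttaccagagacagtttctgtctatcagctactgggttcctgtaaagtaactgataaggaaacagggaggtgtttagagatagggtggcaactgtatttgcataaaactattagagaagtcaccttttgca
Il1rl1 promoter 2: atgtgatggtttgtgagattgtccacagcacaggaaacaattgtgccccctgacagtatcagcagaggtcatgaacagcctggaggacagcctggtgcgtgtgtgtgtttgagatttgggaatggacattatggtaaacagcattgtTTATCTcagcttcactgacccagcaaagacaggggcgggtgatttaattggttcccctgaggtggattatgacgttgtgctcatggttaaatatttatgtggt
These windows are chr19:29924863-29925112 and chr19:29945540-29945789 for Il33, and chr1:40429320-40429569 and chr1:40439379-40439628 for Il1rl1, all on the plus strand. The Il33 start sites lie 20677 bases apart, and the second window lies wholly within an intron of 3 of the 5 annotated transcripts. Its TATAAA begins 29 bases before the start site, where a TATA box usually sits, while that of the first window begins 203 bases before it. The Il1rl1 start sites lie 10059 bases apart, and their GATA matches begin 217 and 103 bases before them. Of 32851 promoter windows of the same length, 12.4% held TATAAA and 9.99% held AGATAA on either strand. The AP-1 motif TGANTCA (6.75% of windows) and the STAT motif TTCNNNGAA (7.02%) had no match in these 4 windows. A match here is a run of letters and not evidence of binding. The 3′ counts do not show which promoter was used, nor whether Il1rl1 RNA encoded the membrane receptor or its soluble decoy.

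Over all kept cells, Il33 stood at 11.1 CPM (UMIs scaled to 1000000 per library) in untreated skin, 20.2 on day 10 of oxazolone, 44.2 on day 16 and 22.1 with MC903. Tslp stood at 1.2, 0.660, 0.814 and 3.59 CPM in the same order. Il33 was therefore highest at oxazolone day 16, whereas Tslp was highest with MC903, the vitamin D analogue that is widely used to raise TSLP in mouse skin. Among the receptor chains, Il1rl1 stood at 9.31, 24.3, 25.1 and 33.7 CPM and Il1rap at 64.1, 165.3, 402.9 and 221 CPM. Crlf2 stood at 13.1, 33, 57.5 and 22.5 CPM, and Il7r at 33.9, 45.4, 134.5 and 52.6 CPM. All 4 chains were higher in each treated library than in the untreated one. The kept cells held 769 of the 867 Il1rl1 UMIs of all deposited barcodes untreated and 2537 of 4038 at day 10. At day 16 they held 2437 of 2868, and with MC903 2306 of 2360. The day 10 level of Il1rl1 and its place among the treated libraries thus depend on the cell and doublet filters. Past 2-fold, 3 of the 6 genes were higher at oxazolone day 10, where 22.4% of all measured genes were past 2-fold in either direction and 12.0% were higher. At day 16, 5 were higher (54.8% in either direction, 15.1% higher), and with MC903 3 were (24.5% and 12.4%). None of the 6 was lower in these comparisons. Between oxazolone days 16 and 10, 3 of 6 were higher at day 16 (41.6% and 9.32%). The median gene's log2 ratio was -0.73 for day 16 over untreated and -0.63 for day 16 over day 10. Setting that median to 0 turned the log2 ratio of Tslp at day 16 over untreated from -0.56 to 0.17, while Il33, Il1rl1, Il1rap, Crlf2 and Il7r kept their direction.

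**Figure D1:**
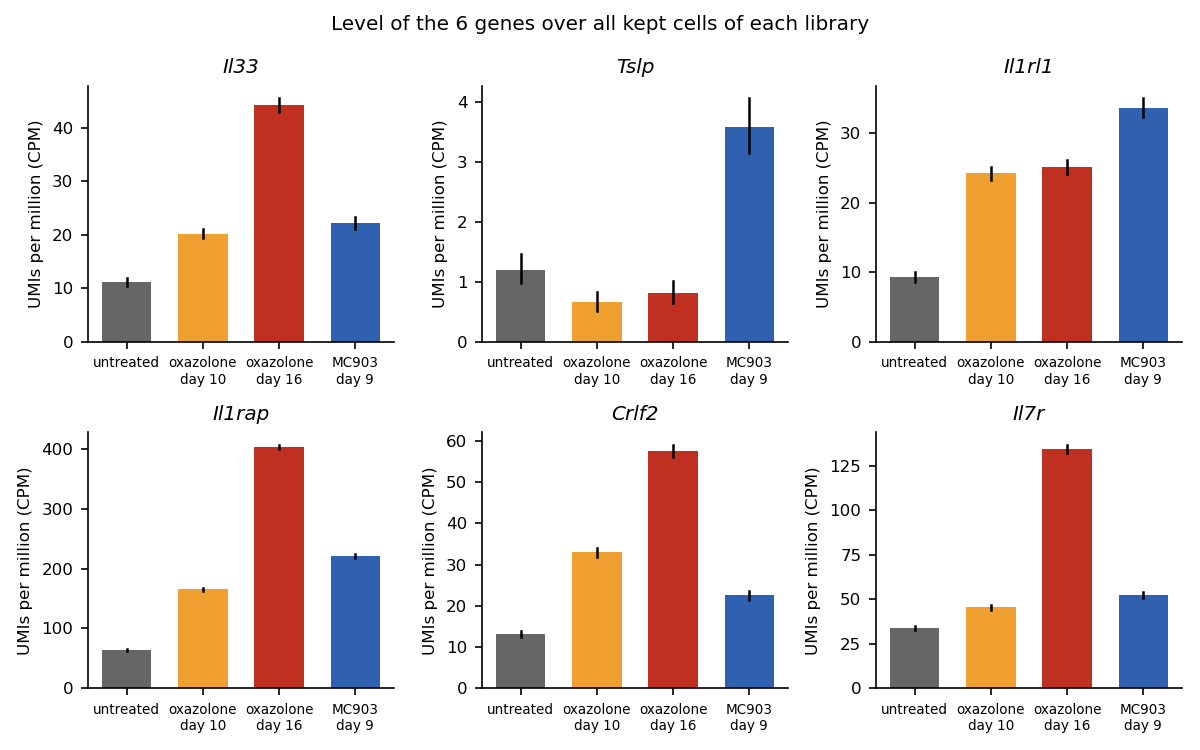
Level of each of the 6 genes in CPM over all kept cells, with 1 bar per library and lines for exact Poisson 95% intervals that cover counting error only. Il33 reaches 44.2 CPM and Il1rap 402.9 CPM at oxazolone day 16, whereas Tslp is highest with MC903 at 3.59 CPM.

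In such sums, more cells of a type and more RNA per cell cannot be told apart, so cells were gated into 28 types by known marker genes. Fibroblast-gated cells numbered 1840, 555, 382 and 1088 in the order above, and basal keratinocyte-gated cells 1331, 241, 9 and 80. Neutrophil-gated cells numbered 14, 1745, 3985 and 282, and macrophage- or monocyte-gated cells 84, 1377, 1216 and 143. Levels below are CPM within the gated cells of a library, and only groups of at least 50 cells entered a ratio unless their number is given. Between 15.5% and 30.5% of a library's cells stayed outside every gate. The labels held against their markers: fibroblast markers summed to 20474 to 39989 CPM in the fibroblast gate and to 50.9 to 247.1 CPM in basal keratinocytes. Basal keratinocyte markers summed to 7513 CPM untreated, 6312 at day 10 and 3400 with MC903 in their own gate, and to 13.0 to 61.8 CPM in fibroblasts.

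Il33 UMIs lay in both keratinocytes and fibroblasts in untreated skin and nearly all in fibroblasts in treated skin. In untreated skin, basal keratinocytes held 52.8% of the library's Il33 UMIs and fibroblasts 34.8%. Fibroblasts held 96.0% on day 10 of oxazolone, 95.4% on day 16 and 94.4% with MC903, where their numbers were lower than in the untreated library. Within fibroblasts, Il33 stood at 13.2 CPM (319 UMIs) untreated, 153 CPM (2027 UMIs) at day 10, 310.4 CPM (4096 UMIs) at day 16 and 49.4 CPM (1431 UMIs) with MC903. All 3 treated libraries were above the untreated one, and the order from highest to lowest was oxazolone day 16, day 10, MC903 and untreated, with no overlap of the counting intervals. The log2 ratio to untreated was 3.54 (3.36 to 3.71) at day 10, 4.55 (4.39 to 4.72) at day 16 and 1.90 (1.73 to 2.08) with MC903, which are 11.6-fold, 23.5-fold and 3.74-fold. Day 16 was 2.03-fold above day 10, a log2 ratio of 1.02 that was 0.98 without the 5 cells richest in Il33 in each library.

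The share of fibroblasts with an Il33 UMI was 5.71% untreated, 31.2% at day 10, 61.3% at day 16 and 16.7% with MC903. Treated fibroblasts were sequenced more deeply, with medians of 21509, 34512 and 24296 UMIs against 12476 in untreated skin. After thinning each cell to 1000 UMIs the shares were 1.04%, 7.29%, 18.9% and 3.24%, in the same order of libraries. Genes induced by tissue dissociation summed to 3436, 1312, 2717 and 4128 CPM in the fibroblasts of the 4 libraries. Their part in fibroblast Il33 was not tested. In melanocytes, used as cells that should lack the gene, 0 of 67 cells had an Il33 UMI at day 10 and 1 of 189 in untreated skin. Day 16 had 10 melanocytes and MC903 47, fewer than 50, so this check does not cover those libraries. Il33 RNA was unevenly spread among fibroblasts: 25 cells held 50% of the UMIs at day 10 and 25 did so at day 16, and the richest cell held 139 and 235 UMIs.

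The fibroblasts of the 4 libraries lay mostly in different graph clusters, and with 1 library per group a cluster made mostly of 1 library may be that library and not a type. Cluster levels are over all kept cells of a cluster in a library, including those outside the gate, where it had at least 20, and leading genes are those highest by fold over all other cells. Cluster A2, led by Cxcl5, Saa3, Ptx3, Tnc and Timp1, held 44.3% of the day 10 fibroblasts and 67.5% of those of day 16. Its Il33 level was 215.9 CPM at day 10, 372.6 at day 16 and 154.4 with MC903. Cluster A12, led by Smpd3, Col14a1 and Clec3b, was present in all libraries (334, 36, 56 and 29 cells) and had 53.3 CPM of Il33 untreated, 200.2 at day 10, 142.3 at day 16 and 255.2 with MC903. Within this shared cluster the treated libraries were again above the untreated one, but MC903 was the highest in CPM. The share of fibroblast-gated A12 cells with an Il33 UMI was 18.9%, 61.1%, 66.7% and 32.1% in the order of libraries, so the MC903 level came from fewer of its 28 cells. Most MC903 fibroblasts lay instead in cluster A22 (Cxcl13, C7, Apod) at 69.0 CPM and in cluster A38 (Cyp26b1, Ccbe1, Cyp24a1) at 17.1 CPM. The 64 untreated cells of A22 were at 67.9 CPM, beside 2.41 CPM in A11 (Pi16, Cd34) and 2.85 CPM in A1 (Cilp, Postn), which held most untreated fibroblasts.

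Il33 was also compared between fibroblasts that did or did not carry at least 2 UMIs of at least 2 of the inflammatory genes Cxcl5, Saa3, Lcn2 and Timp1. At day 10 the 178 cells that did were at 239.5 CPM and the 377 that did not at 70.8 CPM. At day 16 the values were 398.8 CPM in 193 cells and 146.6 CPM in 189 cells. With MC903 they were 93.1 CPM in 102 cells and 40.7 CPM in 986 cells. In each treated library the cells with the inflammatory genes had more Il33, and they were also deeper, with medians of 35830 against 16098 UMIs at day 10. The thinned shares with an Il33 UMI were 14.6% against 3.77% at day 10, 28.5% against 8.43% at day 16 and 9.80% against 2.54% with MC903.

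In basal keratinocytes the untreated library was the highest. Their Il33 level was 23.3 CPM (484 UMIs) untreated, 4.77 CPM (34 UMIs) at oxazolone day 10 and 2.94 CPM (9 UMIs) with MC903, and day 16 had too few cells for a level. The log2 ratio to untreated was -2.29 (-2.84 to -1.79) at day 10 and -2.99 (-4.13 to -2.05) with MC903. Without the 5 cells that had the most Il33 UMIs in each library, the log2 ratios were -3.38 and -4.89. Genes induced by tissue dissociation summed to 5298 CPM in untreated basal keratinocytes, 1198 at day 10 and 2684 with MC903. They too were highest untreated, and their part in keratinocyte Il33 was not tested. In cluster A18 (Ly6d, Krtdap, Krt15), which held 7 of the 9 basal keratinocytes of day 16 and is given for the other libraries, Il33 stood at 41.5 CPM in 797 untreated cells, 8.17 in 117 cells at day 10 and 6.26 in 27 cells with MC903. Untreated skin was thus the highest in this cluster as well. Outside these classes Il33 was low: macrophages ranged from 0 to 1.17 CPM, neutrophils from 0.638 to 3.40 CPM and mural cells from 0.489 to 4.07 CPM. Untreated conventional dendritic cells were at 3.97 CPM.

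Tslp was sparse throughout, with 99, 69, 79 and 246 UMIs in the 4 libraries. Fibroblasts held 34.3% of them untreated, 26.1% at day 10, 48.1% at day 16 and 55.7% with MC903. Their level was 1.41 CPM (34 UMIs), 1.36 CPM (18 UMIs), 2.88 CPM (38 UMIs) and 4.73 CPM (137 UMIs) in that order. Fibroblasts of the MC903 library were the highest, and day 10 did not differ from untreated beyond the counting interval. The log2 ratio to untreated was 1.75 (1.2 to 2.34) with MC903 and 1.03 (0.33 to 1.74) at day 16. The day 16 value fell under 2-fold with doublets kept (0.88), so its call rests on the filter. Within the MC903 library Tslp stood at 5.70 CPM in cluster A22 and 4.71 CPM in cluster A38, so the clusters that held most fibroblasts had similar levels.

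Vascular cells were a further source of Tslp RNA. Mural cells stood at 12.7 CPM untreated, 3.39 at day 10, 7.29 at day 16 (43 cells) and 14 with MC903, and were thus lowest at day 10. The log2 ratio at day 10 was -1.91 (-3.12 to -0.81), from 10 UMIs against 26 untreated, and with MC903 it was 0.14. Blood endothelial cells stood at 5.44, 6.07 and 9.37 CPM in the treated libraries. Lymphatic endothelial cells, chosen after their values were seen, were at 19.9 CPM with MC903 and 6.05 CPM at day 16. Mural and endothelial cells together held 27.2% to 30.4% of the Tslp UMIs in every library. Basal keratinocytes, the textbook source, had 0.722 CPM untreated, 0.280 at day 10 and no Tslp UMI in 80 cells with MC903. Few keratinocytes of treated skin stayed in the gate, so keratinocyte Tslp was not resolved at this depth. The cluster rule described below set aside 587 basal keratinocyte-gated cells at day 10 and kept 241. At day 16 it set aside 52 and kept 9.

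Untreated macrophages had the highest Tslp level of that class, at 14.2 CPM from 11 UMIs, against 0.781, 0.328 and 3.20 CPM in the treated libraries. Most untreated macrophages lay in cluster B9, led by Cd163 and Folr2, genes of tissue-resident macrophages. In B9 the Tslp level was 21.7 CPM untreated, 2.61 at day 10, 0.883 at day 16 and 13.6 with MC903. Its order was therefore the same within the cluster as in the class, from few UMIs.

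**Figure D2:**
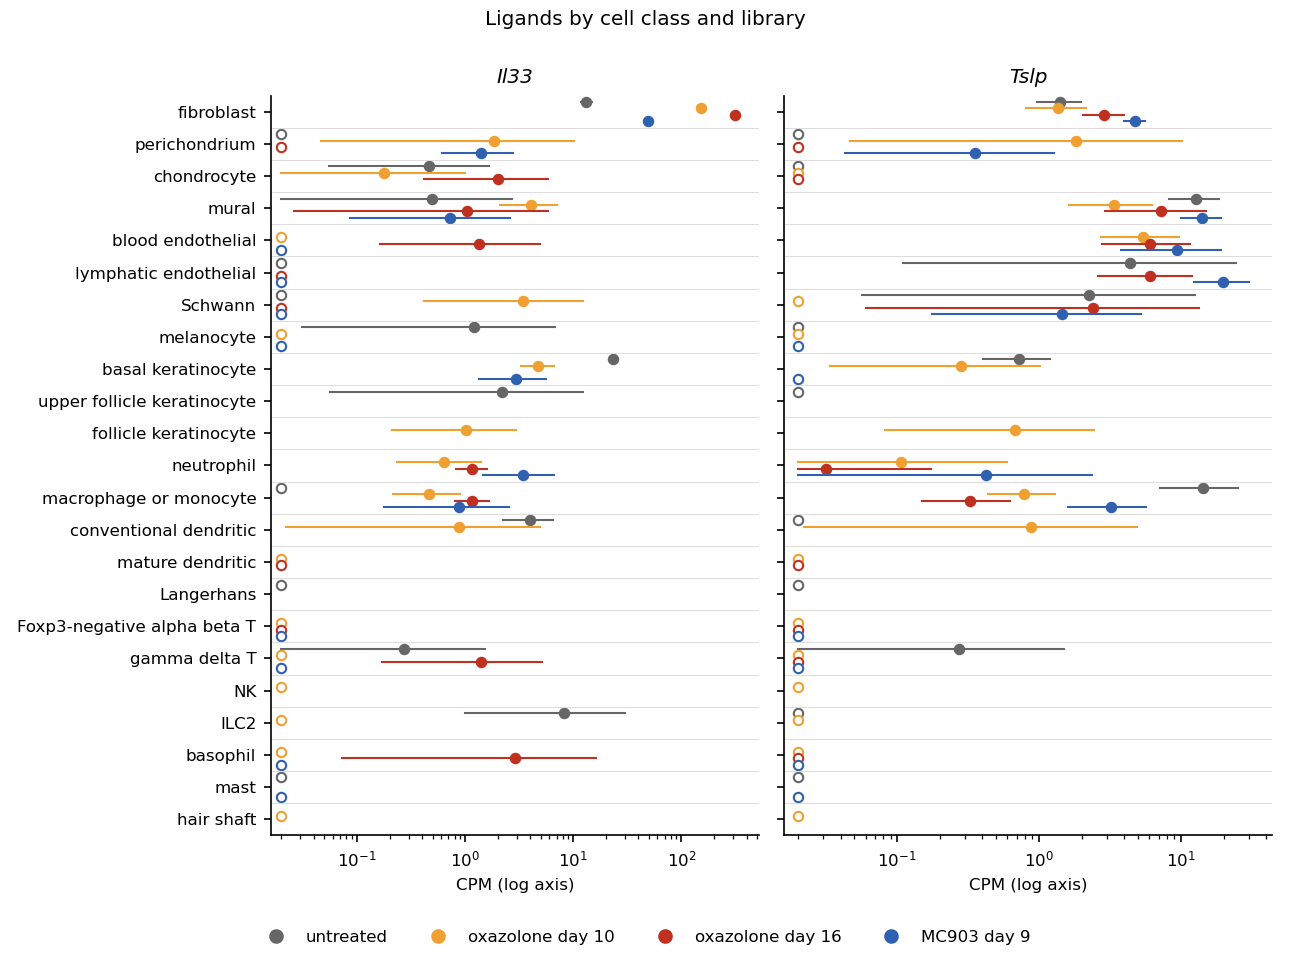
Il33 and Tslp levels (CPM on a log axis) in each gated class, with 1 coloured point per library and exact Poisson 95% bars; values of 0 sit at the left edge. In fibroblasts the Il33 points run from 13.2 to 310.4 CPM, while Tslp is higher in mural cells (3.39 to 14 CPM) than in fibroblasts (1.36 to 4.73 CPM).

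Il1rl1, the ligand-binding chain for interleukin-33, was held by different cells in each condition. Basophil- and mast-gated cells held 12.2% of its UMIs in untreated skin, 16.8% on day 10 of oxazolone, 37.2% on day 16 and 74.9% with MC903. Fibroblasts held 8.45%, 63.5%, 43.0% and 4.90% in the same order. The Il1rl1 level over all cells was thus carried mainly by fibroblasts at day 10 and by basophils and mast cells with MC903. Their numbers in the MC903 library were 56 basophils and 32 mast cells.

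Fibroblasts had 65 Il1rl1 UMIs (2.69 CPM) untreated, 1611 (121.7 CPM) at day 10, 1049 (79.5 CPM) at day 16 and 113 (3.90 CPM) with MC903. Both oxazolone libraries were far above the other libraries. The log2 ratio to untreated was 5.50 (5.14 to 5.88) or 45.2-fold at day 10, and 4.88 (4.52 to 5.27) or 29.5-fold at day 16. With MC903 it was 0.54 (0.08 to 1.00), which did not reach 2-fold. Past 2-fold, 3 of 5 measured genes of the set were higher in fibroblasts at day 10 (16.7% of all measured genes were past 2-fold, and 10.4% were higher), 5 of 6 at day 16 (22.8% and 9.95%) and 3 of 5 with MC903 (20.0% and 9.86%). For day 16 over day 10, 3 of 6 were higher (15.5% and 5.06%). None was lower in these comparisons. The median log2 ratio of all genes in fibroblasts was -0.16 for day 16 over untreated and -0.15 for day 16 over day 10. The fibroblast calls were Il33, Il1rl1 and Crlf2 at day 10, those with Tslp and Il7r added at day 16, and Il33, Tslp and Il1rap with MC903.

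This receptor RNA came from few fibroblasts. An Il1rl1 UMI was found in 16 of 1840 fibroblasts untreated, 111 of 555 at day 10, 55 of 382 at day 16 and, with MC903, 18 of 1088, and in 0.165%, 3.46%, 3.77% and 0.286% after thinning to 1000 UMIs. At day 10, 10 cells held 50% of the UMIs, and at day 16 only 3 cells did, the richest with 331 UMIs. The 5 richest cells held 35.1% at day 10, 67.5% at day 16, 75.4% untreated and 84.1% with MC903. Without them the log2 ratio to untreated was 6.92 at day 10 and 5.31 at day 16, so both remained the highest libraries, and day 16 over day 10 went from -0.61 to -1.61. With MC903 it was -0.08 without them. The size of the fibroblast Il1rl1 level thus depends on few cells, which the counting intervals do not show.

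In the oxazolone libraries most Il1rl1 UMIs of fibroblasts lay in cluster A2, with 1602 of 1611 at day 10 and all 1049 at day 16. In untreated skin, where no level is given for A2, 31 of the 65 UMIs lay in A12 and 18 in A11, and with MC903 71 of 113 lay in A2 and 34 in A38. The Il1rl1 level of A2 was 192.7 CPM at day 10, 103.8 at day 16 and 49.6 with MC903, with a UMI in 42.3%, 21.3% and 11.6% of its cells. Cluster A12, which had Il33 in every library, had 6.95 CPM untreated, 0 at day 10, 0.586 at day 16 (1 UMI, in a cell outside the fibroblast gate) and 0 with MC903. At day 10, fibroblasts with the inflammatory genes named above had 237.3 CPM of Il1rl1 against 11.5 CPM in those without, and at day 16 121.4 against 1.95 CPM. With MC903 the values were 8.92 and 2.90 CPM. The Il1rl1 level thus differed more between these fibroblasts than the Il33 level did, in both oxazolone libraries.

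Mast cell and basophil RNA in the fibroblast gate was measured beside this result. Mast cell markers summed to 3.52, 3.93, 4.40 and 5.53 CPM in fibroblasts of the 4 libraries, and the basophil genes Mcpt8 and Prss34 to 0.663, 0.0756, 0.379 and 0.242 CPM. The basophil sum was highest in untreated skin and the mast cell sum with MC903. Their part in fibroblast Il1rl1 was not tested. Among fibroblasts with an Il1rl1 UMI, 106 of 111 (95.5%) also had an Il1rap UMI at day 10 and 52 of 55 at day 16, against 55.2% and 60.9% of the other fibroblasts. An Il1rl1 UMI was found in 34.7% of fibroblasts with Il33 and 13.3% of those without at day 10, and in 17.1% and 10.1% at day 16. Such shares grow with depth, and after thinning only 8 and 2 cells had UMIs of Il1rl1 and Il1rap together and 1 and 2 of Il33 and Il1rl1, too few to compare.

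Basophils had the highest Il1rl1 level of the classes with at least 50 cells. It was 614 CPM at day 10, 706 at day 16 (44 cells) and 1607 with MC903, and 77.0%, 75.0% and 94.6% of basophils had a UMI. After thinning, the shares were 43.8%, 48.8% and 55.4%, again highest with MC903. The untreated library had 6 basophils. Mast cells, chosen after their values were seen because no library had 50 of them, were at 348.9 CPM in 21 untreated cells and at 2738 CPM in 32 MC903 cells. Their cluster B6, led by Mcpt4 and Cma1, gave 338 and 2750 CPM in those libraries and 2909 CPM at day 16.

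Lymphoid and dendritic cells also carried Il1rl1. Cluster B10, led by Ikzf2, Foxp3, Il2ra and Icos, genes of regulatory T cells, stood at 236 CPM untreated, 280.1 at day 10 and 250 at day 16, which did not differ beyond counting error. The gate for group 2 innate lymphoid cells, also chosen after its values were seen, gave 99.4 CPM in 36 untreated cells and 614.7 CPM in 23 cells at day 10. In untreated skin, cells outside every gate held 333 of the 769 Il1rl1 UMIs. Cluster B5, led by Ear2, Mgl2 and Cd209a, held 316 UMIs at 106.3 CPM with a UMI in 47.0% of its 279 untreated cells. Dendritic and Langerhans gates together held 29.5% of the untreated Il1rl1 UMIs. Conventional dendritic cells as gated were at 59.8 CPM untreated and 7.91 CPM at day 10, a log2 ratio of -2.92 (-4.07 to -1.97), where 17.6% of all measured genes were past 2-fold. The clusters differed between these libraries: 50% of the untreated cells lay in B1 and 75.7% of the day 10 cells in B2.

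Macrophages had little Il1rl1, at 18.1 CPM untreated, 1.46 at day 10, 5.32 at day 16 and 1.45 with MC903. At day 16, 133 of the 146 UMIs came from 1 cell. The log2 ratio of day 16 over day 10 was 1.87 with every cell and -1.52 without the 5 richest cells of each library, so it has no stable direction. Neutrophils were at 5.85, 3.80 and 2.55 CPM in the treated libraries.

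Il1rap, the accessory chain shared with other interleukin-1 family receptors, was found in most classes. Neutrophils had 1308 CPM at day 10, 992 at day 16 and 1181 with MC903, with a UMI in 83.3% to 89.3% of cells. They held 71.2% of the Il1rap UMIs at day 10, 80.9% at day 16 and 18.4% with MC903. The level per neutrophil RNA was thus similar in the 3 treated libraries, and the cell numbers were not. Without neutrophils, the log2 ratio over all cells at day 10 over untreated turned from 1.37 to -0.29, and at day 16 it went from 2.65 to 0.84.

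Fibroblasts had 151 CPM of Il1rap untreated, 139.6 at day 10, 122 at day 16 and 321 with MC903. MC903 fibroblasts were the highest and both oxazolone libraries were slightly below untreated. The log2 ratio was -0.11, -0.30 and 1.09 (1.03 to 1.15) in that order, and with classes taken from clusters the MC903 value was 0.98, just under 2-fold. Within the MC903 library, cluster A38 was at 510 CPM and cluster A22 at 153 CPM, while the untreated cells of A22 were at 25.5 CPM and those of A11 at 193.5 CPM. Neutrophil markers in the fibroblast gate summed to 143.4 CPM at day 10, 1509 at day 16 and 617 with MC903, against 109912 to 135048 CPM in neutrophils themselves. Their part in fibroblast Il1rap was not tested.

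Il1rap was higher in macrophages of the later oxazolone and MC903 libraries, at 36.2 CPM untreated, 49.6 at day 10, 127.8 at day 16 and 82.5 with MC903. The log2 ratio to untreated was 0.45, 1.82 and 1.19. Untreated values rest on 84 cells, and without the 5 richest cells of each library the ratios were 1.41, 2.76 and 1.78. Basal keratinocytes had 29.8 CPM untreated, 34.1 at day 10 and 78.6 with MC903, a log2 ratio of 1.40 that was 0.95 without the 5 richest cells. Perichondrium-gated cells were at 9.19, 27.5, 7.97 (23 cells) and 53.7 CPM, highest with MC903, where the log2 ratio was 2.55 with every cell and 5.27 without the 5 richest. In basophils Il1rap was at 146, 51.9 and 108.5 CPM in the treated libraries.

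**Figure D3:**
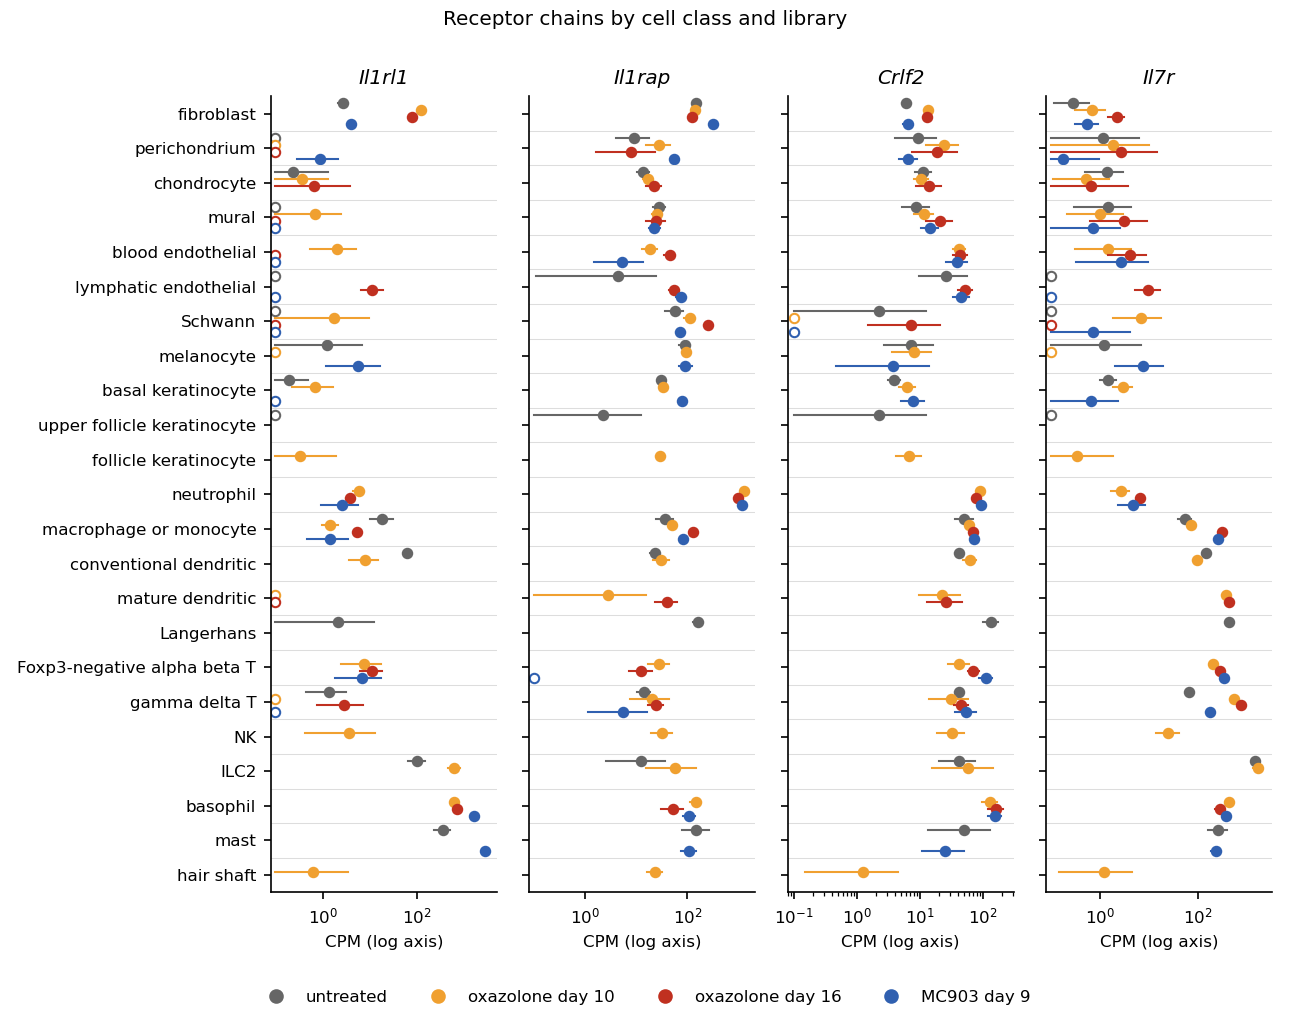
Levels of the 4 receptor chains (CPM on a log axis) in each gated class, with 1 coloured point per library and exact Poisson 95% bars; values of 0 sit at the left edge. Il1rl1 peaks in mast cells and basophils, Il1rap in neutrophils (992 to 1308 CPM) and Crlf2 is spread over myeloid cells, while fibroblast Il1rl1 separates the oxazolone libraries (121.7 and 79.5 CPM) from the others (2.69 and 3.90 CPM).

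Crlf2, the TSLP-binding chain, was broadly spread over immune cells and lay within 2-fold across libraries in macrophages and across treated libraries in neutrophils. Macrophages had 50.5 CPM untreated, 59.4 at day 10, 69.1 at day 16 and 72.6 with MC903, all within 2-fold. Neutrophils had 91.4, 77.4 and 94.6 CPM in the treated libraries. Basophils were higher, at 129.7, 161.5 and 153.4 CPM. In these classes the levels stayed close. The higher Crlf2 over all cells of oxazolone skin came with more neutrophils and macrophages. They held 24.9% and 33.1% of its UMIs at day 10 and 44.2% and 33.9% at day 16. With MC903 they held only 14.46% and 16.21%. Cells outside every gate held 29.85% of the Crlf2 UMIs untreated, 21.74% at day 10, 10.51% at day 16 and 30.67% with MC903.

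Crlf2 was also found in the other immune classes. Gamma delta T cells stood at 42.1, 30.7 (38 cells), 45.8 and 53.6 CPM. T cells without Foxp3 stood at 41.7 CPM at day 10, 70.9 at day 16 and 111 with MC903 (40 cells). The kept cells of this class lay only in clusters B12, led by Gzma, Cd8b1 and Cd8a, and B24, led by Gzmc, Gzma and Trac. Its values thus describe cells of those clusters and not Foxp3-negative T cells at large. Langerhans cells, chosen after their values were seen, were at 133 CPM in 38 untreated cells. Fibroblasts were at 6.13 CPM untreated, 13.6 at day 10, 13.0 at day 16 and 6.39 with MC903. Their log2 ratios of 1.15 (0.83 to 1.47) at day 10 and 1.08 at day 16 dropped to 0.95 and 0.92 with classes taken from clusters, so these calls depend on how fibroblasts were defined. Blood endothelial cells were at 38.8 to 43.9 CPM in the treated libraries.

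Il7r separated macrophages of the treated libraries. Macrophages had 42 UMIs (54.4 CPM) untreated, 1358 (70.7 CPM) at day 10, 8481 (309.1 CPM) at day 16 and 873 (253.6 CPM) with MC903. Day 16 and MC903 were above day 10 and untreated with no overlap of intervals. Day 16 over day 10 was 2.13 on the log2 scale (2.05 to 2.21), or 4.37-fold. Relative to the 84 untreated cells the log2 ratios were 0.38, 2.51 (2.07 to 2.98) and 2.22 (1.78 to 2.71), and without the 5 richest cells of each library they were 2.99, 5.18 and 4.54. In the untreated library, few cells thus decide the size of these ratios. Macrophages held 1.5%, 28.6%, 65% and 24.3% of each library's Il7r UMIs. Of macrophages, 11.9%, 28.5%, 67.3% and 48.3% had an Il7r UMI, and 3.57%, 5.16%, 20.9% and 16.8% did after thinning.

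Past 2-fold in macrophages, 4 of 5 measured genes of the set were higher at day 16 than at day 10, where 28.1% of all measured genes were past 2-fold and 6.00% were higher. Among them, Il1rl1 rests on the 1 cell named above, and Il33 on 32 against 9 UMIs (1.17 against 0.468 CPM). Against untreated cells, none of 4 was higher and 1 was lower at day 10, where 16.3% of all measured genes were past 2-fold, 7.99% higher and 8.31% lower. At day 16, 2 of 5 were higher and 1 lower (31.2%, 8.17% higher and 23.0% lower), and with MC903 2 of 3 were higher (19.1%, 10.3% higher). The median log2 ratio of all genes in macrophages was -0.41 for day 16 over day 10 and -0.29 for day 16 over untreated. The gene lower at day 10 and at day 16 was Il1rl1.

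Il7r differed between macrophage clusters. Cluster B33, led by Mmp13, Ccl24 and Arg1, held 42.1% of the day 16 macrophages and had 445 CPM at day 16 and 418 with MC903. Cluster B21, led by Mmp12, Nos2 and Arg1, had 319 CPM at day 10, 419 at day 16 and 530 with MC903. In cluster B20, led by C1qa, which held 55.9% of the day 10 macrophages, Il7r was at 78.6 CPM at day 10 and 45.2 at day 16. Within each of these 3 clusters the libraries lay within 2-fold. Il7r was higher in B33 and B21, whose leading genes include Arg1 (with Nos2 in B21), than in B20. In B9, the cluster of most untreated macrophages, it was at 35.5 CPM untreated and 8.20, 7.95 and 2.71 CPM in the treated libraries. In B14, led by the monocyte genes F13a1, Plac8 and Ccr2, it was at 5.64, 47.1, 19.4 and 53.3 CPM. In B9 and B14 the libraries thus differed within a cluster as well.

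The highest Il7r levels were in lymphoid cells, for which this receptor is known. Gamma delta T cells stood at 66.3 CPM untreated, 538 at day 10 (38 cells), 766.5 at day 16 and 177 with MC903. The log2 ratio at day 16 was 3.53 (3.33 to 3.74), where 37.6% of all measured genes were past 2-fold, and with MC903 it was 1.42, or 0.47 without the 5 richest cells. The median log2 ratio of all genes at day 16 in this class was -0.51. The class draws on more than 1 cluster. B0, led by Trdc and Trdv4, was at 3.91 CPM in 625 untreated cells and 61.1 CPM with MC903, and B3, led by Il23r and Il17a, was at 1085, 1327, 770 and 1007 CPM. Within B3, Il7r was thus high in the untreated library too.

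In other lymphoid cells Il7r stood at 1059 CPM untreated, 820 at day 10 and 694 at day 16 in the Foxp3 cluster B10. Cells gated as group 2 innate lymphoid were at 1445 CPM untreated and 1644 at day 10, and their cluster B8, led by Il5, Calca and Ccr8, was at 1504 CPM untreated. T cells without Foxp3, kept only in clusters B12 and B24, were at 207 CPM at day 10, 284 at day 16 and 341 with MC903. Their log2 ratio of day 16 over day 10 was 0.46, and -0.27 with classes taken from clusters. Cells outside every gate held 43.8%, 45.6%, 18.5% and 52.2% of the Il7r UMIs of the libraries. Among myeloid cells, mature dendritic cells were at 373.7 CPM at day 10 and 423.6 at day 16 (27 and 20 cells), and untreated Langerhans cells at 427 CPM, both chosen after their values were seen. Basophils had 433, 280 and 374 CPM in the treated libraries, and neutrophils 2.66, 6.65 and 4.67 CPM. In neutrophils Il7r was the 1 of 5 measured genes of the set past 2-fold for day 16 over day 10, where 43.9% of all measured genes were and 10.3% were higher, with a median log2 ratio of -0.59. Its log2 ratio was 1.32, and 0.92 with classes taken from clusters, which ends the call. Fibroblasts were near 0, at 0.290 to 2.20 CPM from 7 to 29 UMIs, and the call at day 16 rests on those counts.

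UMIs of Crlf2 and Il7r together, both chains of the TSLP receptor, were found in 5.95% of untreated macrophages, 16.3% at day 10, 48.1% at day 16 and 39.2% with MC903. In basophils the shares were 37.8%, 43.2% and 48.2% in the treated libraries, and in neutrophils at most 1.06%. Of untreated Langerhans cells, 73.7% had both. Basophils also had Il1rl1 and Crlf2 together in 37.8%, 45.5% and 58.9% of cells. Depth was higher in the day 16 and MC903 macrophages, with medians of 22044 and 23730 UMIs against 13720 at day 10 and 8872 untreated, and its part in these shares was not tested.

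**Figure D4:**
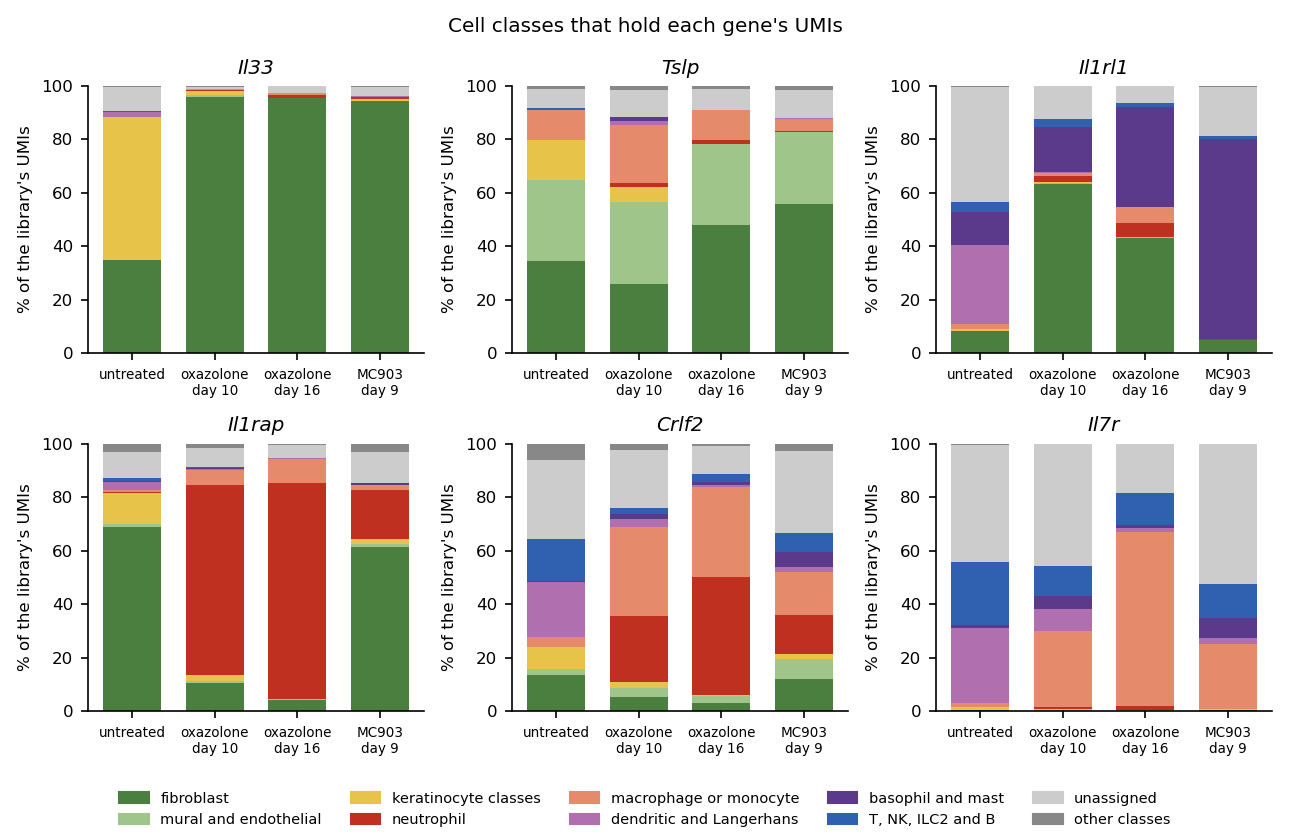
Share of each gene's UMIs, in percent of the library's UMIs of that gene, held by groups of gated classes in the 4 libraries (stacked bars, 1 per library). Il33 lies mostly in the keratinocyte classes in untreated skin (53.65%) and in fibroblasts in treated skin (94.4% to 96.0%), and Il1rl1 is held mostly by fibroblasts at oxazolone day 10 (63.5%) and by basophils and mast cells with MC903 (74.9%).

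**Figure D5:**
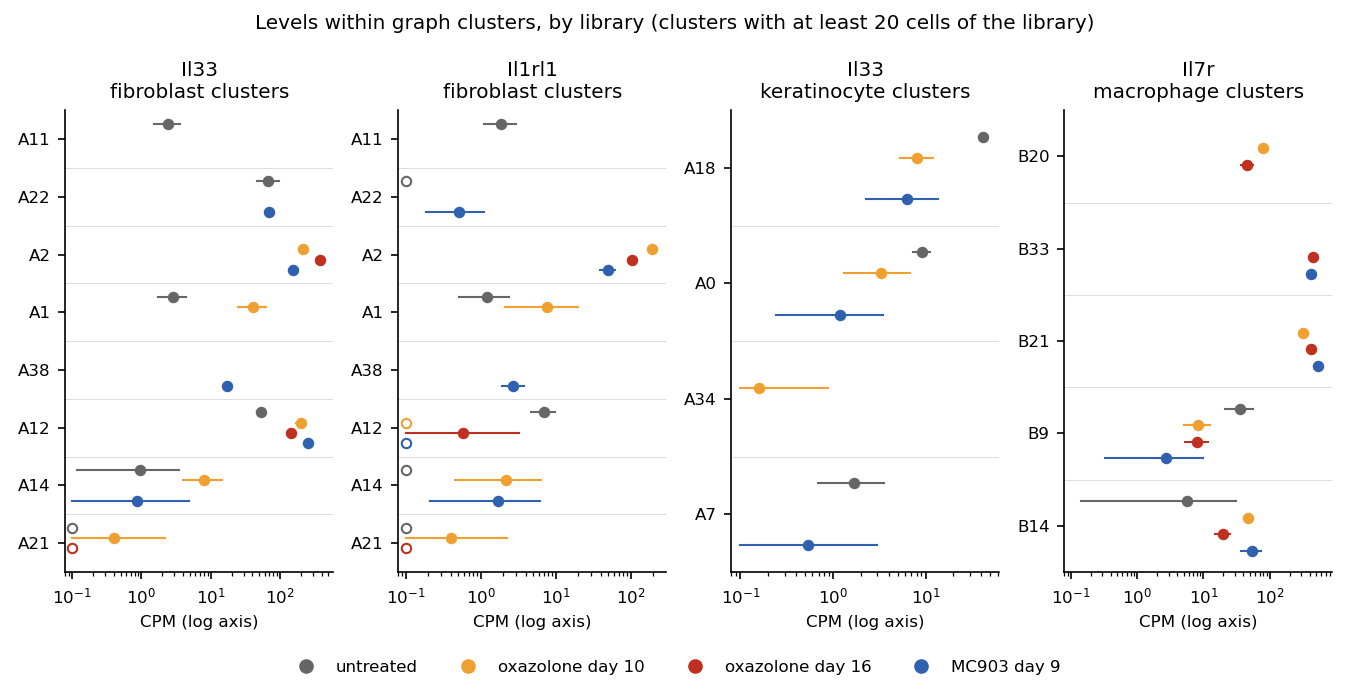
Levels in CPM (log axis) of Il33 and Il1rl1 in fibroblast clusters, Il33 in keratinocyte clusters and Il7r in macrophage clusters, with 1 coloured point per library that has at least 20 cells there and exact Poisson 95% bars; values of 0 sit at the left edge. Cluster A2 is high in both Il33 (154.4 to 372.6 CPM) and Il1rl1 (49.6 to 192.7 CPM), A12 in Il33 (53.3 to 255.2 CPM) with Il1rl1 at most 6.95 CPM, and B21 and B33 are the macrophage clusters with high Il7r.

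Genes that act below these receptors were counted from lists drawn up for the pathway, in fibroblasts first. Of 18 measured signalling partners (MyD88, IRAK, TRAF, JAK, STAT5 and SOCS genes among them), 4 were higher and none lower at day 10, where 10.4% of all measured genes were higher and 16.7% were past 2-fold in either direction. At day 16, 5 were higher and 1 lower (9.95% and 22.8% of all genes), and with MC903 1 was higher and none lower (9.86% and 20.0%). Their median log2 ratio was -0.10 against 0.03 for all genes at day 10, 0.18 against -0.16 at day 16 and 0.40 against 0.03 with MC903. Most of the list thus stayed within 2-fold. At day 10, Jak2, a kinase of the TSLP receptor, was at 136.9 CPM against 67.0 untreated, and Stat5a, its transcription factor, at 51.5 against 22.7. At day 16 and with MC903, Jak2 was at 147.1 and 132 CPM, while Stat5a was at 24.0 and 20.5 CPM, close to untreated. Irak2, a kinase below MyD88, was at 4.39 CPM untreated, 19.8 at day 16 and 12 with MC903. Socs2, a feedback inhibitor of JAK signalling, was at 64.3 CPM untreated and 26.4 at day 16.

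Of 6 other chains of the interleukin-1 receptor family measured in fibroblasts, 3 were higher and 1 lower at day 10, 4 higher and 1 lower at day 16, and 1 higher and none lower with MC903, beside 10.4%, 9.95% and 9.86% of all measured genes that were higher. Il1r1, the signalling receptor for interleukin-1, was at 252 CPM untreated, 590 at day 10, 875 at day 16 and 502 with MC903. Il1r2, its decoy, was at 309 CPM untreated, 52.0 at day 10, 45.0 at day 16 and 247.1 with MC903. In the oxazolone libraries the receptor was thus higher and its decoy lower than untreated. Il1rapl1 was at 5.59, 32.8, 17.6 and 5.67 CPM. Among other ligands, the interleukin-1 receptor antagonist Il1rn was at 0.124, 1.59, 61.2 and 21.9 CPM and Il1b at 1.57, 3.40, 74.8 and 52.6 CPM, in the same libraries where neutrophil markers in the gate were 143.4 to 1509 CPM. The part of neutrophil RNA in these values was not tested. For the next 3 lists, the shares of all measured genes past 2-fold in either direction were 16.7% at day 10, 22.8% at day 16 and 20.0% with MC903. Of the list of other ligands of the interleukin-1 and interleukin-7 families, 1 of 5 measured was higher and 1 lower at day 10, 3 and 2 of 7 at day 16, and 3 and 3 of 7 with MC903. Of proteases known to cut interleukin-33, 2 of 6 were higher and 1 lower at day 10, 2 of 7 higher and none lower at day 16, and 3 of 9 higher and 2 lower with MC903. Of type 2 effector genes, few were measured in fibroblasts: 1 was lower at day 10, 1 of 2 was higher at day 16 and 2 of 3 with MC903. Ccl11, the eosinophil attractant eotaxin, was at 186 CPM untreated, 65.7 at day 10, 250 at day 16 and 223 with MC903.

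In macrophages, 4 of 18 signalling partners were higher than untreated and none lower at day 10 (7.99% of all measured genes were higher), with a median log2 ratio of 0.31 against 0.01 for all genes. At day 16, 8 of 18 were higher and none lower (8.17%), with a median of 0.82 against -0.29. With MC903, 8 of 17 were higher and none lower (10.3%), with a median of 0.92 against -0.01. Jak2 stood at 95.8 CPM untreated, 155 at day 10, 543 at day 16 and 444.5 with MC903. Cish, a STAT5 target that restrains the pathway, stood at 5.18, 7.76, 60.1 and 32.3 CPM, and Socs2 at 3.88, 9.00, 45.7 and 38.4 CPM. These genes were highest in the libraries where macrophage Il7r was highest. The untreated values of Cish and Socs2 rest on few UMIs in 84 cells. Ccl24, the eosinophil attractant eotaxin-2, stood at 272, 194, 6421 and 2845 CPM.

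In basal keratinocytes, 1 of 19 signalling partners was higher and 5 lower at day 10 (18.9% of all measured genes were past 2-fold, 10.4% higher and 8.46% lower), and none higher and 4 of 18 lower with MC903 (20.3%, 4.78% higher and 15.6% lower). The median log2 ratio of the list at day 10 was -0.64 against 0.13 for all genes, and the median of all genes with MC903 was -0.11. Cish stood at 62.5 CPM untreated, 16.5 at day 10 and 6.85 with MC903, and Socs1, another inhibitor of JAK signalling, at 40.8, 9.25 and 10.8 CPM. Keratinocytes and macrophages thus differed in the direction of Cish. Genes induced by dissociation were also highest in untreated keratinocytes, as given above, and their part in these values was not tested. Of the 6 alarmin and receptor genes, 1 of 4 measured was lower at day 10, and 1 of 4 was higher and 2 lower with MC903. Those lower were Il33 in both comparisons and Il7r with MC903. The Il7r call rests on 2 UMIs with MC903 against 31 untreated, and its interval of -4.30 to 0.78 includes both directions. The Il7r log2 ratio turned from -1.19 to 2.45 when gated cells lying in clusters led by another class were kept.

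The genes whose pattern was most like Il33, Tslp, Il1rl1 and Crlf2 were found by Pearson correlation of log2 levels over 41 points (a class of a library with at least 50 cells) among 14853 genes. For Il33 these were Bmp3 (r = 0.874) and Mmp3 (0.873), for Tslp B3galnt1 (0.774), and for Il1rl1 Cd200r3 (0.752) and Ms4a2 (0.735), the latter a basophil and mast cell receptor subunit. Cd200r3 and Ms4a2 are markers of the basophil gate, so they are high in its points by construction. For Crlf2 the most alike were Fxyd5 (0.895) and Tgfb1 (0.892). Points of a library share its depth and preparation, and those of a class its cell type, so these values are a description only.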

How the data were processed

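The authors' deposited matrices hold counts: UMI counts per gene and cell barcode for each of 4 libraries. Reads were aligned with Cell Ranger 8.0 to mm10 per the submitters' processing notes, while the file headers name 7.2.0 or 8.0.0. The annotation, and whether intronic reads were counted, is not given in the sources used here. Barcodes numbered 7755, 8708, 8199 and 4185, with 73054242 to 119717836 UMIs per library. Cells with fewer than 300 genes or more than 15% mitochondrial UMIs were left out, as were 140 to 607 doublets per library, called with Scrublet in scanpy 1.11.5 at 0.8% per 1000 barcodes.

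Cells were gated by 164 markers of 28 types (score at least 0.25, margin 0.1, 2 markers with a UMI). Leiden clustering (resolution 2, 2000 variable genes, 30 components, 15 neighbours) did not leave out the 6 genes. Gated cells in clusters with more markers of another class among their top 10 genes were set aside, a rule chosen after seeing the data: 707 of 4572 fibroblasts, 1014 of 2675 basal keratinocytes, 267 of 3087 macrophages, and 347 of 557 T cells without Foxp3. Of the basal keratinocytes set aside, 366 were untreated, 587 of day 10, 52 of day 16 and 9 of the MC903 library. With 121 of 133 Foxp3-positive T cells set aside, that class is described by its cluster. Raw counts were summed per class and library and divided by the class total (CPM). A ratio needed 50 cells in each library and 30 UMIs in all, and a 0 took a floor of 3 UMIs. Intervals at 95% came from scipy 1.17.1. No test was run, since each group is 1 library. The genes named from each list are at most the 4 with the largest ratio in a comparison, and the 6 genes and the lists were chosen with earlier results of these data known. The interval and fold scripts were checked on simulated data.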

Additional observations from a re-analysis of the deposited data

How the results depend on the processing

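No paired analysis was possible because each group is 1 library. The alternatives were another gate margin, classes from clusters, doublets or all barcodes kept, 5% of a class total taken off as free RNA, the median log2 ratio set to 0, other minimum counts, no neutrophils, and 2 settings chosen after seeing the data (without the 5 cells richest in the gene, and keeping the gated cells set aside). Of 1458 values, 1226 stayed within the counting interval, 229 lay outside it and 3 that were past 2-fold turned direction. Of 1006 log2 ratios, 27 had another sign than reported, the other 24 of them under 2-fold as reported. The 3 were Il1rap over all cells at day 10 without neutrophils (log2 ratio -0.29), Il1rl1 in macrophages for day 16 over day 10 without the richest cells (-1.52), and Il7r in basal keratinocytes with MC903, which was -1.19 and became 2.45 with the cells set aside kept. Without the richest cells, Il1rl1 in fibroblasts was 6.92 at day 10 and 5.31 at day 16. With classes from clusters, Il33 and Il1rap in MC903 fibroblasts were 1.68 and 0.98, the latter no longer past 2-fold. Il7r in macrophages for day 16 over day 10 was 2.54 with the median set to 0. The fibroblast share of Il33 UMIs was 94.95% at day 10 with all barcodes, 98.2%, 97.9% and 96.4% in the treated libraries after taking off free RNA, and 96.6% with MC903 with classes from clusters. The cause of these differences was not tested. Depth limits Tslp most, with 69 to 246 UMIs per library, and the classes with fewer than 50 cells.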
